A study of Mus musculus with 55 samples.

Results

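The comparison described here is that of EE SUS with EE RES mice, all of them male C57BL/6J mice kept in an enriched environment (EE), exposed to chronic social defeat stress (CSDS) and then classified as susceptible (SUS) or resilient (RES) by a social interaction test. Its members were taken from the labels, as the mice whose housing is given as enriched and whose phenotype is given as susceptible (9 mice) or resilient (9 mice), so that 18 of the 54 mice of the series were compared. According to the methods, mice were placed in EE or standard housing (SH) at 21 days of age and stayed there for 8 weeks before 10 days of CSDS, and the ventral dentate gyrus was dissected at postnatal day 90. EE cages held tunnels, objects and running wheels, and both EE groups carried the same housing and the same defeat, and the labels separate them by the outcome of the social interaction test. Undefeated EE mice (9 control mice) are given beside them as levels, and SH SUS (10) and SH RES (7) mice serve as the closest comparison in the series.

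The dentate gyrus is the entry gate of the hippocampus. Its granule cells are born throughout life in a layer next to the hilus, where mossy cells and GABA interneurons lie, and the ventral part is known for its role in anxiety and stress responses. Neighboring tissue includes the CA3, CA2 and CA1 fields, the choroid plexus of the ventricle and, beneath the hippocampus, the thalamus. In a bulk sample, fewer cells of a type and less RNA per cell cannot be told apart.

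RNA was sequenced from single mice with a median of 42166258 read pairs in EE SUS mice (37225525 to 45795159) and 45511372 in EE RES mice (37823094 to 49662342). The median count on genes was 20336643 and 22632098. Levels are given in CPM, the read count scaled to a common library size after normalization across the 54 mice, and a log2 fold change is SUS over RES with its standard error (SE) from the fit. The dentate identity of the tissue was visible in each of the 18 mice, with Prox1, the homeobox factor that defines granule cells, between 96.5 and 157 CPM. Markers of tissue outside the dentate gyrus were present as well. Ttr, the transthyretin gene of the choroid plexus, ranged from 0 to 474 CPM among EE SUS mice and from 0.0437 to 264 CPM among EE RES mice, with EE SUS mouse 3 and EE RES mouse 3 the highest. EE SUS mouse 7 stood apart for microglial genes and for S100a9.

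No gene passed an adjusted p of 0.05 between EE SUS and EE RES mice by the quasi-likelihood test of edgeR, by limma or by DESeq2, and the smallest adjusted p was 0.999 by edgeR and DESeq2 and still higher by limma. Of 17991 genes tested, 645 (3.59%) had an unadjusted edgeR p below 0.05, with 302 (1.68%) higher and 343 (1.91%) lower in SUS mice, where 899.6 are expected by chance. The corresponding counts were 623 (3.46%) by limma and 599 (3.33%) by DESeq2. The mean was higher in SUS mice for 49.3% of all genes. Most of these differences were small, since 437 of the 645 were below 1.3-fold and 16 were above 2-fold. At the criterion of the study, a limma p below 0.05 with a fold change above 1.3, the count was 185 genes (1.03%), with 83 (0.461%) higher and 102 (0.567%) lower in SUS mice. Without EE RES mouse 6 these counts were 1052 at the unadjusted edgeR p and 281 at the criterion of the study. In no gene (0%) did the 9 SUS mice lie all above or all below the 9 RES mice. The gene differences below are therefore read by their size, their spread and their count against these backgrounds, and none holds after adjustment over all genes.

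The lower genes included the largest differences among the 20 leading genes, which are the 10 higher and the 10 lower protein-coding genes with the smallest p. Dcn, which encodes the small proteoglycan decorin (chromosome 10, 97479609 to 97518143 of GRCm38), ranged from 11.4 to 28.2 CPM (median 15.1) in SUS mice and from 17.8 to 63.3 CPM (median 42.3) in RES mice. The log2 fold change was -1.08 (SE 0.28) with an unadjusted edgeR p of 4.0e-04, and all 9 SUS mice were below the RES median. The mean of EE control mice, 27.9 ± 19.3 CPM (SD, n = 9), lay between the SUS and RES medians, and its SD reached past both.

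Ccn3, a matricellular protein of the CCN family, had the largest fold change of the 20. It ranged from 4.47 to 22.8 CPM (median 9.35) in SUS mice and from 6.35 to 78.1 CPM (median 35.3) in RES mice, a log2 fold change of -1.60 (SE 0.46). The RES mice were widely spread, and the lowest of them lay within the range of the SUS mice. Bmp3, an atypical member of the bone morphogenetic protein family that opposes BMP signaling, was at 2.92 ± 0.447 CPM (SD, n = 9) in SUS mice and 4.65 ± 1.84 CPM (SD, n = 9) in RES mice, a log2 fold change of -0.66 (SE 0.17). Tpbg, a leucine-rich repeat membrane protein also known as the 5T4 antigen, was at 3.05 ± 0.365 CPM (SD, n = 9) in SUS and 4.39 ± 1.32 CPM (SD, n = 9) in RES mice. Efcab6, an EF-hand protein, and Myh7, the slow beta-myosin heavy chain, had log2 fold changes of -0.70 (SE 0.21) and -0.63 (SE 0.18). Oprd1, the delta opioid receptor, was at 7.37 ± 0.585 CPM (SD, n = 9) in SUS and 8.96 ± 1.61 CPM (SD, n = 9) in RES mice.

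For Dcn, Ccn3, Bmp3, Tpbg, Efcab6, Myh7 and Oprd1 the SD among RES mice was larger than among SUS mice. The other 3 leading lower genes differed less but with an even spread. Ppp2r1b, a scaffold subunit of protein phosphatase 2A, was at 12.6 ± 0.63 CPM (SD, n = 9) in SUS and 13.9 ± 0.566 CPM (SD, n = 9) in RES mice, and 7 of the 9 SUS mice were below every RES mouse. Kctd5, an adaptor of cullin ubiquitin ligases, had a log2 fold change of -0.12 (SE 0.04), and D130043K22Rik, the mouse ortholog of KIAA0319, one of -0.14 (SE 0.04). In the two-sided exact permutation test of each gene, the p-values of the 10 lower genes lay between 4.94e-04 for Kctd5 and 0.0139 for Efcab6. The 10 genes were picked for a small edgeR p in the same comparison. Small permutation p-values were therefore favored by the choice and give no separate support.

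**Figure D1:**
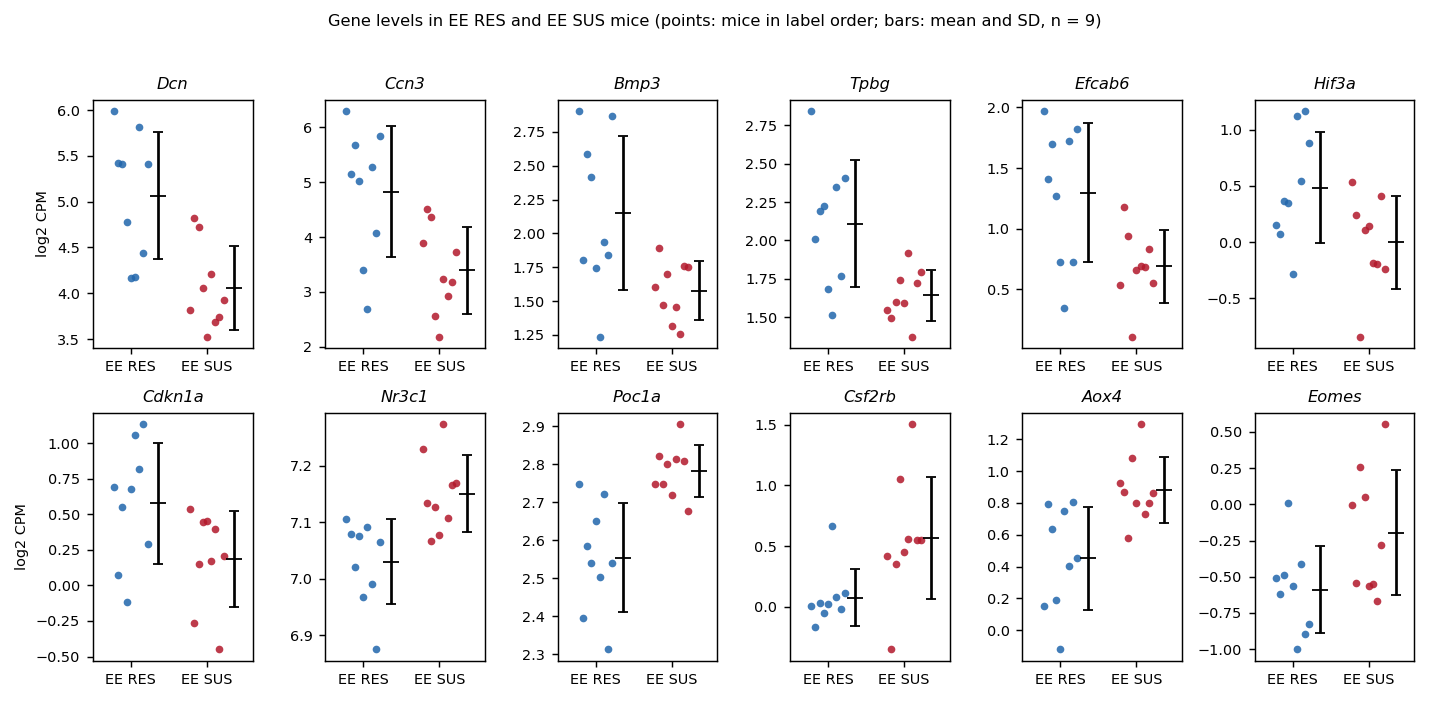
Levels of 12 genes in log2 CPM (vertical axes, one scale per gene) in EE RES (blue) and EE SUS (red) mice; each point is a mouse and the bars give the mean and SD of 9 mice. The groups overlap in every panel, and RES mice spread more widely than SUS mice for Dcn, Bmp3, Tpbg and Efcab6.

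The 10 leading higher genes had log2 fold changes between 0.12 and 0.59. Poc1a, a centriolar protein, ranged from 6.3 to 7.4 CPM (median 6.87) in SUS mice and from 4.88 to 6.62 CPM (median 5.72) in RES mice, a log2 fold change of 0.23 (SE 0.06) where 6 SUS mice exceeded the whole RES range. Csf2rb, the common beta chain of the receptors for IL-3, IL-5 and GM-CSF, had the largest difference of these at 0.59 (SE 0.17), from 0.978 ± 0.202 CPM (SD, n = 9) in RES to 1.47 ± 0.578 CPM (SD, n = 9) in SUS mice. The highest Csf2rb levels were 2.74 CPM in EE SUS mouse 7, which also stood apart for microglial genes, and 1.98 CPM in EE SUS mouse 4, and without mouse 7 the log2 fold change was 0.43. Its near-identical neighbor Csf2rb2 can share reads with Csf2rb. Aox4, an aldehyde oxidase that oxidizes retinaldehyde, was at 1.77 ± 0.28 CPM (SD, n = 9) in SUS and 1.31 ± 0.301 CPM (SD, n = 9) in RES mice, and all 9 SUS mice were above the RES median. Kcnk10, the potassium channel TREK-2, had a log2 fold change of 0.22 (SE 0.07), and Ilk, the integrin-linked kinase, one of 0.12 (SE 0.04). Rnf217, a ubiquitin ligase, was at 50.9 ± 5.55 CPM (SD, n = 9) in SUS and 44.1 ± 4.85 CPM (SD, n = 9) in RES mice. Adgrf4, an adhesion G protein-coupled receptor, Ccdc184 and E430018J23Rik made up the rest with log2 fold changes between 0.21 and 0.32.

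Nr3c1, the gene of the glucocorticoid receptor, was among the leading higher genes and opens the account of the glucocorticoid pathway. Corticosterone released during stress binds this receptor, which moves to the nucleus and switches on target genes, some of which restrain the receptor in turn. Nr3c1 ranged from 134 to 155 CPM (median 140) in SUS mice and from 117 to 138 CPM (median 134) in RES mice. All 9 SUS mice were above the RES median and 7 were above every RES mouse. The log2 fold change was 0.12 (SE 0.04) with a two-sided exact permutation p of 0.00115 for the 18 mice. Nr3c1 was likewise picked for its small edgeR p in these mice, so the permutation p gives no separate support. In SH mice the log2 fold change was -0.08 (SE 0.04). The difference between housings was 0.20 (SE 0.05) with an unadjusted edgeR p of 3.83e-04 and an adjusted p of 0.843.

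Of the 17 glucocorticoid receptors and targets tested, 5 had a higher and 12 a lower mean in SUS mice, with a median log2 fold change of -0.05 beside -0.0012 over all genes. Of the 17, 4, namely Nr3c1 and the lower genes Hif3a, Cdkn1a and Zbtb16, had an unadjusted p below 0.05, against 3.59% of all genes. Hif3a, a hypoxia-inducible factor subunit that is induced by glucocorticoids, was at 0.942 ± 0.273 CPM (SD, n = 9) in SUS and 1.38 ± 0.503 CPM (SD, n = 9) in RES mice, a log2 fold change of -0.57 (SE 0.21). Cdkn1a, the cell cycle inhibitor p21, was at 1.07 ± 0.246 CPM (SD, n = 9) and 1.46 ± 0.434 CPM (SD, n = 9), a log2 fold change of -0.45 (SE 0.17), and all 9 SUS mice were below the RES median. Zbtb16, the zinc finger factor PLZF, was at 40.9 ± 4.9 CPM (SD, n = 9) in SUS and 46.2 ± 3.74 CPM (SD, n = 9) in RES mice. Zbtb16 lost its call without EE SUS mouse 6. It also lost it when choroid plexus and thalamic scores, or CA1 and thalamic scores, of each mouse were added to the model. The mineralocorticoid receptor Nr3c2 had a log2 fold change of 0.03 (SE 0.04). Most of the classical targets differed by less than the spread between mice. Fkbp5, the immunophilin that restrains the receptor, was at 43.7 ± 4.86 CPM (SD, n = 9) in SUS and 43.2 ± 4.46 CPM (SD, n = 9) in RES mice, and Sgk1, Tsc22d3, Per1 and Klf9 had log2 fold changes of -0.09, -0.05, -0.05 and -0.04.

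The promoters of the 2 targets with the largest differences are shown because the receptor acts through motifs near its targets. The RefSeq windows (GRCm38.p6) are the 250 bases before an annotated start. They lie at chr7:17062428-17062677 on the minus strand for Hif3a and at chr17:29090729-29090978 on the plus strand for Cdkn1a. Where a gene had several RefSeq starts, the start nearest its GENCODE gene start was used, and windows at other starts are not shown. Capitals mark matches to the p53 decamer on either strand, and neither window matched the GC box (GGGCGG), the TATA box (TATAAA) or the core of the glucocorticoid response element (ACANNNTGT) on either strand.
Hif3a: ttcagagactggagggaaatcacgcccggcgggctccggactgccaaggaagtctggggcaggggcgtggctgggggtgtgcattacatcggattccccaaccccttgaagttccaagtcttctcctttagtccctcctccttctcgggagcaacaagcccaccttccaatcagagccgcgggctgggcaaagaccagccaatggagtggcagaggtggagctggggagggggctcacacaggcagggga
Cdkn1a: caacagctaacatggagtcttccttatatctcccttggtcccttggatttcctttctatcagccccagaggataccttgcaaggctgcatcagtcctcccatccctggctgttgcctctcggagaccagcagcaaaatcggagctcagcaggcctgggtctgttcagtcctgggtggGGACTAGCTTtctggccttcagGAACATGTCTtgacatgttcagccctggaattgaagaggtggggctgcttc
In the Cdkn1a window the p53 decamer matched at 73 and at 51 bases before the start, and 7.13% of all 32851 promoter windows hold such a match. The glucocorticoid core was found in 1 of the 15 members of the list that have a window, Mt1, and in 5.84% of all windows. These matches describe letters only and say nothing about binding.

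Over all 44 lists of cell types and pathways, 26 of the 673 genes tested (3.86%) had an unadjusted p below 0.05, 11 higher and 15 lower, beside 3.59% of all genes. Cell type lists were compared by the number of their members with a higher or lower mean and by their median, since they get no test. CA1 pyramidal cell genes were lower in SUS mice in all 6 of 6 members, with a median log2 fold change of -0.46. Mpped1, a metallophosphoesterase, ranged from 31.7 to 63.1 CPM (median 44.2) in SUS and from 33.9 to 108 CPM (median 64.2) in RES mice, all 9 SUS mice being below the RES median, and it was the only member with an unadjusted p below 0.05. The two-sided exact permutation p of Mpped1 was 0.0514. Fibcd1, a marker of CA1, was at 31.3 ± 22.8 CPM (SD, n = 9) in SUS and 51.8 ± 33.5 CPM (SD, n = 9) in RES mice, so that its difference is well within the spread. Pou3f1, a POU-domain transcription factor, had a log2 fold change of -0.45 (SE 0.24). Summed over the list, CA1 genes reached 96.2 to 186 CPM (median 116) in SUS, 93.6 to 294 CPM (median 172) in RES and 99.2 to 269 CPM (median 129) in EE control mice. The RES mice held both the highest and the lowest of the 18 values, and in SH mice 3 of the 6 members were higher and 3 lower.

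Thalamic genes went the other way, with all 11 members higher in SUS mice and a median log2 fold change of 0.52. Tcf7l2, a Wnt effector that marks the thalamus, ranged from 3.92 to 24.6 CPM (median 9.16) in SUS and from 1.32 to 21.9 CPM (median 5.3) in RES mice. Rgs16, a regulator of G protein signaling, was at 19.9 ± 10.2 CPM (SD, n = 9) and 11.8 ± 6.55 CPM (SD, n = 9), and these 2 genes were those with an unadjusted p below 0.05. Their two-sided exact permutation p was 0.0689 for Tcf7l2 and 0.0557 for Rgs16, and Tcf7l2 lost the call in 16 of 31 alternative settings, DESeq2 among them. The summed level was 178 to 676 CPM (median 370) in SUS, 117 to 736 CPM (median 217) in RES and 131 to 293 CPM (median 171) in EE control mice. EE RES mouse 6 had the highest sum of all, and without it 10 of the 11 members had an unadjusted p below 0.05 and the median was 0.93. Without EE SUS mouse 8 no member did (0 of 11) and the median was 0.36, and without EE RES mouse 7 it was 1 member and 0.41. In SH mice all 11 members were also higher in SUS mice, with a median of 0.20 and no unadjusted p below 0.05. The tests of the difference between housings gave no unadjusted p below 0.05 for any thalamic member.

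The leading genes were also compared in a model with scores for CA1 and thalamic genes. Whether such scores capture all of the CA1 and thalamic content of a sample was not tested. When the CA1 and thalamic scores of each mouse were added to the model, an alternative chosen after seeing the data, the log2 fold change of Dcn was -0.49 and that of Nr3c1 was 0.12, both with an unadjusted edgeR p below 0.05. The fold changes of Ccn3, Myh7, Efcab6 and Oprd1 went to -0.48, -0.28, -0.22 and -0.15, and their unadjusted p to between 0.0552 and 0.140. Tpbg stayed just under the threshold with a log2 fold change of -0.27 and p = 0.0491 by edgeR.

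Dcn is made by fibroblasts and also by pyramidal cells of the ventral hippocampus, and it stands in the lists of both. The 9 ventral pole pyramidal genes split 3 higher to 6 lower, with a median log2 fold change of -0.03. Among 19 fibroblast genes tested, 14 were higher and 5 lower in SUS mice, with a median log2 fold change of 0.09, and Dcn was the only one with an unadjusted p below 0.05. Lum, another small leucine-rich proteoglycan, was at 6.15 ± 1.32 CPM (SD, n = 9) in SUS and 5.45 ± 0.724 CPM (SD, n = 9) in RES mice, and Col1a1, the fibrillar collagen chain, had a log2 fold change of -0.03 (SE 0.22). Across the 18 mice, taken as deviations from the group means, Dcn correlated with Mpped1 (Pearson r = 0.834, permutation p = 5.0e-05, adjusted p = 0.0012; Spearman rho = 0.779, permutation p = 5.6e-04, adjusted p = 0.00912) and with Fibcd1 (r = 0.773, permutation p = 5.1e-04, adjusted p = 0.00612; rho = 0.744, permutation p = 7.6e-04, adjusted p = 0.00912). Without the 2 mice farthest from the median of Dcn, r was 0.752 and 0.691. The adjustment covers 24 correlations of Dcn, with the 6 CA1 members and the 18 other fibroblast members, of which these 2 passed by either coefficient. For the 18 fibroblast members r lay between -0.278 and 0.536, the highest being Lum. These correlations were chosen after the values of Dcn had been seen, and the difference between the CA1 and the fibroblast members was not tested. Correlations of Dcn with the other ventral pole pyramidal genes were not computed.

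**Figure D2:**
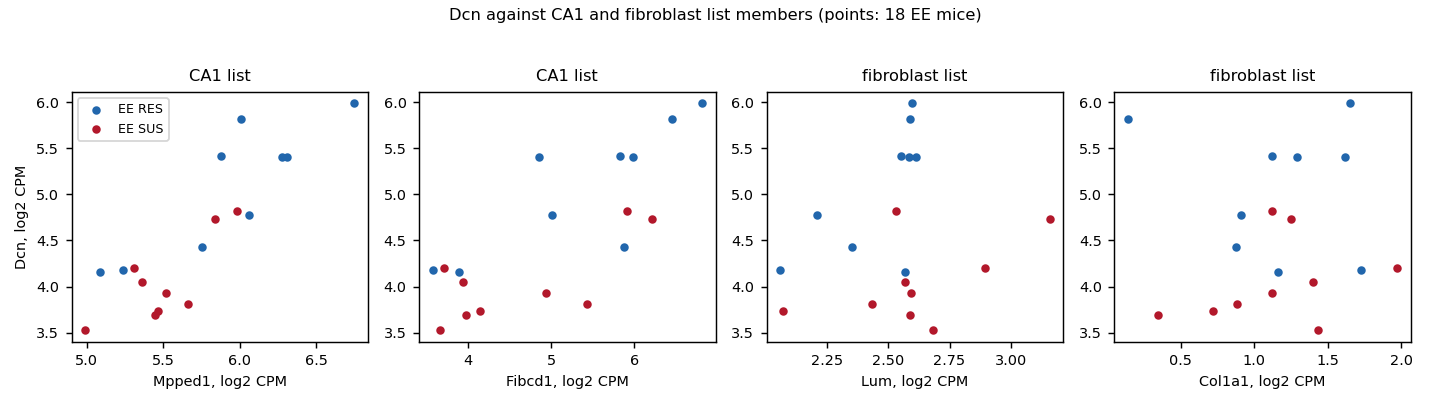
Dcn (vertical axis) against Mpped1 and Fibcd1 of the CA1 list and Lum and Col1a1 of the fibroblast list (horizontal axes), all in log2 CPM, with a point for each of the 9 EE RES (blue) and 9 EE SUS (red) mice. The points rise together for both CA1 genes (r = 0.834 and 0.773 within groups) and scatter for Col1a1 (r = 0.0328).

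Mature granule cell genes had 10 of 13 members higher in SUS mice with a median log2 fold change of 0.08, and none had an unadjusted p below 0.05. With choroid plexus and thalamic scores of each mouse as covariates, 13 of 13 were higher, 7 of them with an unadjusted edgeR p below 0.05, and the median was 0.18. Over all 17991 genes tested in that model, 803 had such a p, 437 higher and 366 lower in SUS mice. With CA1 and thalamic scores instead, 12 of the 13 granule cell genes were higher and their median was 0.12. Without EE SUS mouse 3 and EE RES mouse 3, the highest for choroid plexus genes, 11 were higher with a median of 0.05. In both of these settings, chosen after seeing the data, no member had an unadjusted edgeR p below 0.05. Prox1 was at 135 ± 13.8 CPM (SD, n = 9) in SUS and 123 ± 20.9 CPM (SD, n = 9) in RES mice. Immature granule neuron genes had 7 of 9 members higher, with Neurod1 and Eomes below an unadjusted p of 0.05. Both calls were lost without EE SUS mouse 3, and Eomes lost its call on leaving out any of 9 of the 18 mice and by limma (p = 0.0539). The two-sided exact permutation p was 0.0662 for Neurod1 and 0.0385 for Eomes. With choroid plexus and thalamic scores as covariates, 3 of the 9 had an unadjusted p below 0.05, beside 803 of all 17991 genes, and the median went from 0.06 to 0.15. Without EE SUS mouse 3 and EE RES mouse 3, none of the 9 did and the median was 0.0093. Neurod1, a factor of granule cell differentiation, was at 29.9 ± 4.25 CPM (SD, n = 9) in SUS and 26.7 ± 2.24 CPM (SD, n = 9) in RES mice. Eomes, the factor Tbr2 of intermediate progenitors, was at 0.819 ± 0.286 CPM (SD, n = 9) in SUS and 0.587 ± 0.15 CPM (SD, n = 9) in RES mice, a log2 fold change of 0.49 (SE 0.23). In SH mice the log2 fold change of Eomes was -0.72 (SE 0.24), and the difference between housings was 1.21 (SE 0.33) with an unadjusted edgeR p of 8.87e-04 and an adjusted p of 0.843. Dcx, the microtubule protein of young neurons, had a log2 fold change of -0.07 (SE 0.07). Genes of dividing cells had 10 of 11 members lower with a median of -0.06, and none had an unadjusted p below 0.05. Without EE SUS mouse 8 the split was 5 higher to 6 lower, and with choroid plexus and thalamic scores as covariates it was 7 to 4 with a median of 0.02. Mki67, the proliferation antigen Ki-67, was at 2.52 ± 0.506 CPM (SD, n = 9) in SUS and 2.85 ± 0.713 CPM (SD, n = 9) in RES mice. Hilar mossy cell, CA2 and CA3 lists had medians of 0.06, 0.02 and 0.01. Striatal genes had 3 members higher and 5 lower, and neocortical genes 3 and 3, where Fezf2, a factor of deep-layer projection neurons, ranged from 9.01 to 12.6 CPM (median 9.9) in SUS and from 10.2 to 15.3 CPM (median 12.3) in RES mice with an unadjusted edgeR p of 0.00868.

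GABA interneuron genes were lower in 11 of 13 members, with a median log2 fold change of -0.09. The enzymes Gad1 and Gad2, which make GABA in all of these cells, had log2 fold changes of -0.02 (SE 0.03) and -0.03 (SE 0.06). Reln, the secreted protein of Cajal-Retzius cells and some interneurons, ranged from 145 to 171 CPM (median 150) in SUS and from 144 to 217 CPM (median 164) in RES mice, a log2 fold change of -0.18 (SE 0.06). Vip, the vasoactive intestinal peptide of interneurons that inhibit other interneurons, was at 9.71 ± 1.46 CPM (SD, n = 9) in SUS and 11.5 ± 1.51 CPM (SD, n = 9) in RES mice. Both had an unadjusted p below 0.05, and both lost it with CA1 and thalamic scores in the model (0.0687 and 0.189 by edgeR). Neuropeptide genes were lower in 12 of 16 members, with a median of -0.10, Vip and Tac1, the substance P precursor, being the 2 with an unadjusted p below 0.05. Tac1 kept it in 11 of 31 alternative settings, and its two-sided exact permutation p was 0.123. Penk, the enkephalin precursor, was at 19.4 ± 2.97 CPM (SD, n = 9) in SUS and 19.6 ± 2.84 CPM (SD, n = 9) in RES mice.

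GABA-A receptor subunits had 10 of 12 members higher, with a median log2 fold change of 0.05. Gabra5 was lower by little, at a log2 fold change of -0.0071, and Gabra3, the alpha-3 subunit and the one with an unadjusted p below 0.05, was at 21.3 ± 3.17 CPM (SD, n = 9) in SUS and 26.7 ± 5.87 CPM (SD, n = 9) in RES mice. Its log2 fold change of -0.33 (SE 0.13) stood against 0.26 (SE 0.13) in SH mice, with an unadjusted edgeR p of 0.00253 for the difference between housings and an adjusted p of 0.843. Gabra3 lost its call in EE in 2 of 31 alternative settings, with all 6 groups modeled together and with CA1 and thalamic scores in the model. Gabrd, the delta subunit of extrasynaptic receptors on granule cells, had a log2 fold change of 0.17 (SE 0.09). Glutamate receptors, with 13 higher and 9 lower, and synaptic vesicle release genes, with 10 higher and 7 lower, had no member with an unadjusted p below 0.05.

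Among glia and vessels, mature oligodendrocyte genes were higher in all 13 members, with a median log2 fold change of 0.14 and no unadjusted p below 0.05. Mbp, myelin basic protein, was at 637 ± 124 CPM (SD, n = 9) in SUS and 577 ± 101 CPM (SD, n = 9) in RES mice. All 13 were also higher in SH SUS than in SH RES mice, and with CA1 and thalamic scores in the model the EE median was -0.0092. Microglial genes were higher in 13 of 14 members, with a median of 0.07, but without EE SUS mouse 7 only 7 were higher and the median was -0.0081. Astrocyte genes split 7 to 6. Endothelial genes were higher in 11 of 13 members, with a median of 0.05, and Mfsd2a, the lipid transporter of the blood-brain barrier, was lower with an unadjusted p below 0.05 at a log2 fold change of -0.17 (SE 0.08), a call that Mfsd2a lost in 15 of 31 alternative settings, including the exact permutation test (p = 0.114). Oligodendrocyte precursors had 3 members higher and 5 lower, and pericytes and smooth muscle 6 and 5. Border macrophages had 5 higher and 2 lower members and ependymal cells 2 and 1, of 3 tested, in both cases without an unadjusted p below 0.05. Choroid plexus genes were higher in 9 of 10 members with a median of 0.49, which turned on single mice of both groups. The median was -0.39 without EE SUS mouse 3 and 0.79 without EE RES mouse 3. Without both of these mice, a choice made after seeing the data, 5 members were higher and 4 lower with a median of 0.035.

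**Figure D3:**
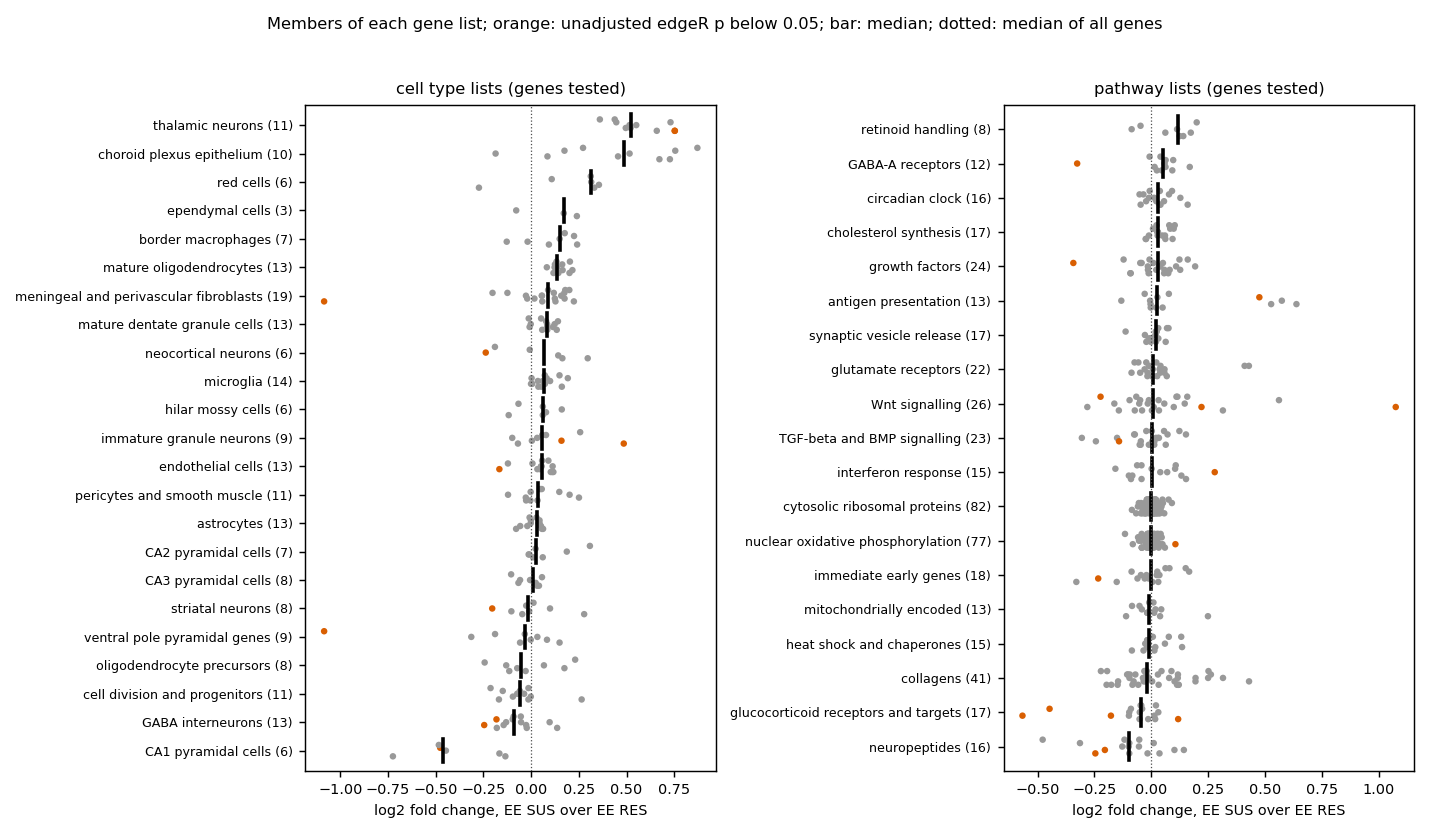
Log2 fold change of SUS over RES mice in EE (horizontal axis) for the tested members of each cell type list (left) and pathway list (right) with at least 2 tested genes. Each point is a gene, orange where the unadjusted edgeR p was below 0.05, and black bars are list medians; the thalamic and CA1 medians of 0.52 and -0.46 lie far from the dotted median of all genes, and most pathway medians lie near it.

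Blood genes were uneven. Of 6 red cell genes, 5 were higher in SUS mice with a median log2 fold change of 0.31 and no unadjusted p below 0.05, and without EE SUS mouse 3 the median was 0.0046. Hbb-bs, an adult beta-globin, ranged from 32.1 to 252 CPM (median 107) in SUS, from 50.4 to 132 CPM (median 84.7) in RES and had a median of 48.2 CPM in EE control mice. The globin genes are near-identical pairs, so their reads can be split between copies. S100a9, the one neutrophil gene that passed the filter on low counts, was at 13.3 CPM in EE SUS mouse 7 and had a median of 0.197 CPM in SUS and 0.284 CPM in RES mice. Its log2 fold change of 1.75 had an unadjusted edgeR p of 0.0256, and without that mouse it was -0.85. None of the 10 lymphocyte genes passed the filter, and Cd3e of T cells did not exceed 0.0985 CPM in any of the 18 mice.

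Immune pathways differed little as groups. Interferon response genes split 8 higher to 7 lower with a median log2 fold change of 0.0018. Ifit3, an interferon-induced antiviral protein, was at 5.79 ± 0.92 CPM (SD, n = 9) in SUS and 4.78 ± 1.04 CPM (SD, n = 9) in RES mice, with all 9 SUS mice above the RES median, though its unadjusted p was above 0.05 without EE RES mouse 4, EE RES mouse 6 or EE SUS mouse 6. Its relative Ifit1 was at 2.02 ± 0.648 CPM (SD, n = 9) and 2.15 ± 0.417 CPM (SD, n = 9). Antigen presentation genes split 8 to 5, and its 4 members of the class II pathway, which displays peptides on antigen-presenting cells, had the largest differences. The log2 fold change was 0.64 (SE 0.33) for Cd74, 0.53 (SE 0.36) for H2-Aa, 0.57 (SE 0.34) for H2-Ab1 and 0.48 (SE 0.23) for H2-Eb1, the one with an unadjusted p below 0.05 (0.0493 by edgeR). In the two-sided exact permutation test the p of H2-Eb1 was 0.130, and H2-Eb1 lost its call in 17 of 31 alternative settings. H2-K1 and H2-D1 of class I had log2 fold changes of -0.0049 and 0.03.

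Of 26 Wnt genes, 14 were higher and 12 lower. Sfrp5, a secreted Wnt antagonist, ranged from 0.098 to 0.753 CPM (median 0.591) in SUS and from 0.0439 to 0.453 CPM (median 0.224) in RES mice, a log2 fold change of 1.08 (SE 0.38) at a level below 1 CPM in every mouse. Fzd8, a Wnt receptor, was at 7.27 ± 0.721 CPM (SD, n = 9) in SUS and 6.22 ± 0.963 CPM (SD, n = 9) in RES mice, and Rspo2, a secreted Wnt enhancer, had a log2 fold change of -0.22 (SE 0.09). Axin2, the common readout of the canonical pathway, was at 25 ± 2.71 CPM (SD, n = 9) and 24.4 ± 3.21 CPM (SD, n = 9). TGF-beta and BMP genes split 12 to 11, with Ltbp1, which stores latent TGF-beta in the matrix, at a log2 fold change of -0.14 (SE 0.06). Growth factor genes split 14 to 10, with Igfbp6, a binding protein of insulin-like growth factors, at 5.51 ± 0.752 CPM (SD, n = 9) in SUS and 6.98 ± 1.74 CPM (SD, n = 9) in RES mice. In the two-sided exact permutation test the p was 0.0516 for Rspo2, 0.0519 for Ltbp1 and 0.0638 for Igfbp6.

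Immediate early genes, which neurons switch on when active, split 9 to 9 with a median log2 fold change of -0.0027. Arc was at 47.7 ± 8.85 CPM (SD, n = 9) in SUS and 47.9 ± 7.3 CPM (SD, n = 9) in RES mice, and Fos, at 2.89 ± 0.52 CPM (SD, n = 9) and 3.61 ± 1.37 CPM (SD, n = 9), had a log2 fold change of -0.33 (SE 0.19). Nr4a2, an orphan nuclear receptor induced by activity, was the one with an unadjusted p below 0.05 by edgeR, which it lost in 17 of 31 alternative settings, and its exact permutation p was 0.164. Cytosolic ribosomal proteins split 41 to 41, nuclear genes of oxidative phosphorylation 37 higher to 40 lower (Uqcrq, a complex III subunit, being the one with an unadjusted p below 0.05, at a log2 fold change of 0.11), mitochondrially encoded genes 6 to 7, collagens 19 to 22, and heat shock genes 7 to 8. The first pair turned on single mice, since without EE RES mouse 7 ribosomal genes split 66 to 16 and oxidative phosphorylation genes 56 to 21, and without EE SUS mouse 8 they split 61 to 21 and 62 to 15. With choroid plexus and thalamic scores as covariates ribosomal genes split 73 to 9 with a median of 0.04. Uqcrq lost its call on leaving out any of 9 of the 18 mice. Clock genes split 10 to 6 and retinoid genes 6 to 2, both without an unadjusted p below 0.05. Cholesterol synthesis genes were higher in 14 of 17 members, but the median log2 fold change was 0.03.

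**Figure D4:**
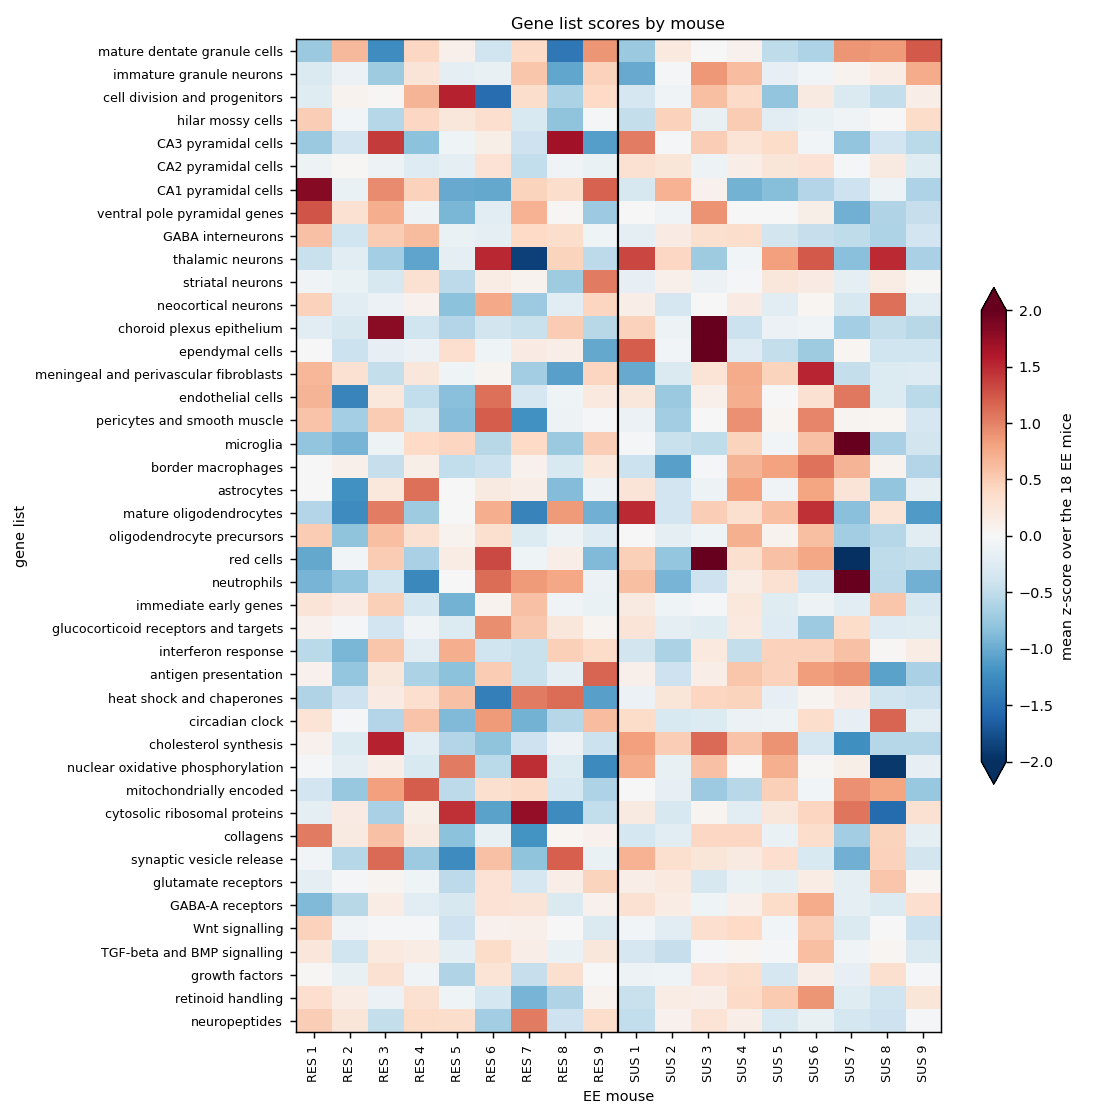
Mean z-score of each gene list (rows) in each EE mouse (columns, RES mice left and SUS mice right of the line), where the z-score of a gene is taken over the 18 mice and red is high. Single mice stand out, such as SUS 3 and RES 3 for choroid plexus genes (2.55 and 1.80), SUS 7 for microglia (2.45) and SUS 8 for oxidative phosphorylation (-1.94), and no row separates the groups.

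The difference between SUS and RES mice in EE was set against that in SH. In SH, 933 genes (5.19%) had an unadjusted edgeR p below 0.05, higher in SUS mice for 2.69% and lower for 2.50% of all genes, and the difference between the housings was below that threshold in 931 genes (5.17%), of which none passed an adjusted p of 0.05 (smallest adjusted p 0.340). Of the 20 leading genes, Adgrf4 was alike in both housings, with a log2 fold change of 0.32 (SE 0.10) in EE and 0.29 (SE 0.11) in SH and a difference of 0.03 (SE 0.14). For Dcn the difference between housings was -1.39 (SE 0.40), for Ccn3 -2.06 (SE 0.65), for Rnf217 0.37 (SE 0.10) and for Poc1a 0.29 (SE 0.09). Each had an unadjusted edgeR p below 0.05 for that difference, and the adjusted p was 0.843 for Dcn, Rnf217 and Poc1a and 0.851 for Ccn3. Since these genes were chosen on the EE values, their difference from SH is a description. Immature granule neuron genes, 7 of 9 higher in EE, were lower in 7 of 9 in SH, and 4 of the 9 had an unadjusted p below 0.05 for the difference between housings. For mature granule cell genes this was 2 of 13, for GABA-A receptor subunits 6 of 12, for hilar mossy cell genes 3 of 6 and for growth factor genes 3 of 24. No other list had more than 2 such members.

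**Figure D5:**
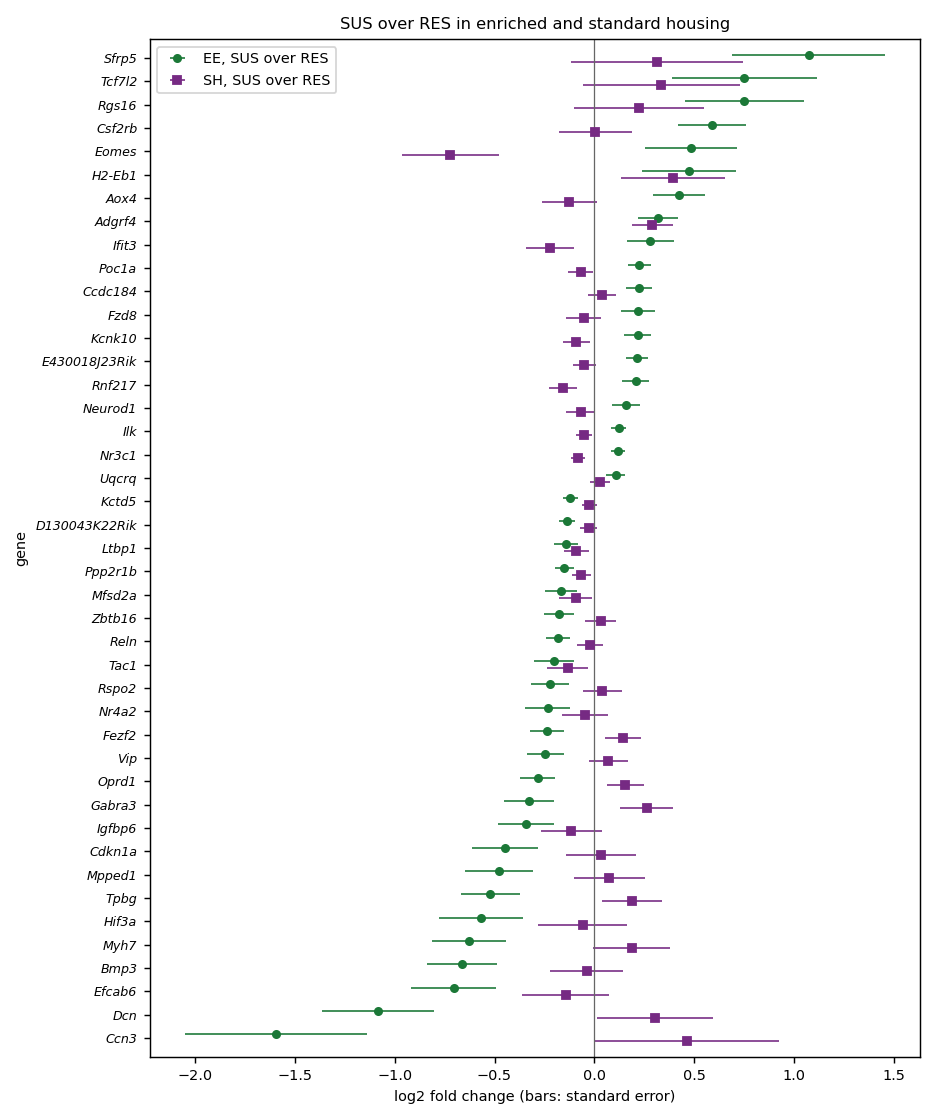
Log2 fold change of SUS over RES mice (horizontal axis, bars give the standard error) in EE (green circles) and SH (purple squares) for 43 genes (vertical axis), namely the 20 leading genes and the list members with an unadjusted edgeR p below 0.05 in EE, without S100a9. The genes were chosen on the EE values, and Eomes, Gabra3 and Nr3c1 have SH values of the opposite sign.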

How the data were processed

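Bulk RNA-seq was analysed from ventral dentate gyrus tissue, with a separate library per male mouse. Per the labels and methods, the authors discarded reads with a score under 15 and aligned the rest to GRCm38 (mm10) with STAR; Picard is named in the submitters' processing notes. The methods name featureCounts for counting reads per gene. The deposited values are raw read counts per gene in the layout of STAR gene counts, and they were used as such. The reverse-strand column (column 4) was used, since the forward share was 3.51 to 3.79% in EE SUS and EE RES mice. Rows that name no gene (unmapped, multimapping, without a feature or ambiguous) were left out; those without a feature made up 20.5 to 26.4% of read pairs in these mice. The 55 libraries came from 54 mice, where counts of EE control mouse 9 were added over its 2 runs.

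Gene names and coordinates came from GENCODE, and 44585 of 45318 gene identifiers were named. Genes with low counts were removed with filterByExpr, which left 17991. One model of group means over the 35 defeated mice was fitted after TMM scaling, with the quasi-likelihood test of edgeR 4.0.16 for p-values, fold changes and standard errors, and limma 3.58.1 (voom) for the criterion of the study (R 4.3.3); DESeq2 1.42.0 was an alternative. P-values were adjusted by Benjamini-Hochberg. Log2 CPM used a prior count of 2. Single genes were also compared by a two-sided exact permutation test over 48620 regroupings of the 18 mice. Genes with a printed permutation p were picked by their edgeR p in the same comparison, so a small value gives no separate support. The tests were checked on simulated data.

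Named genes were the 10 higher and 10 lower protein-coding genes with the smallest edgeR p and a mean of at least 1 CPM, in each list the genes with an unadjusted p below 0.05 (at most 4), and the first 2 genes of each list as levels; other list members are given as examples chosen after their values were seen. The members and lists were chosen with earlier results of these data known, so lists got no test.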

Additional observations from a re-analysis of the deposited data

Results flagged for a closer look

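Within the 9 EE SUS and the 9 EE RES mice, the highest and lowest mouse was compared with the others for 43 gene lists and 44 genes, in 174 groups, and 13 stood far from the rest of their group. Chance flags about 1 in 20 groups. Values of lists are mean z-scores over the 18 EE mice.

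EE SUS mouse 3 had the highest choroid plexus score of its group at 2.55, with the next mouse at 0.459, and EE RES mouse 3 stood out in the same way at 1.80, with the next at 0.513. EE RES mouse 3 also had the highest cholesterol synthesis score, 1.55 against 0.0934. EE SUS mouse 7 had the highest microglial score at 2.45, with the next mouse at 0.584, and the highest neutrophil score at 2.88 against 0.602. The latter rests on S100a9, at 3.75 log2 CPM in that mouse and -0.18 in the next.

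EE SUS mouse 8 was lowest for nuclear oxidative phosphorylation at -1.94, with the next mouse at -0.166, and highest for neocortical genes at 1.11 against 0.170 and for clock genes at 1.16 against 0.365. EE SUS mouse 6 was highest for TGF-beta and BMP genes at 0.607 against 0.0438. Among the leading genes, EE SUS mouse 9 was highest for E430018J23Rik (3.64 log2 CPM against 3.43) and lowest for Adgrf4 (1.92 against 2.35), and EE RES mouse 6 was highest for Csf2rb (0.667 against 0.117). The part of tissue composition or RNA quality in these values was not tested.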

How the results depend on the processing

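The count of genes at a limma p below 0.05 and a fold above 1.3 was 977 (608 higher, 369 lower) without the filter on low counts and 69 (37 higher, 32 lower) with at least 1 CPM in at least 9 mice, beside 185. Without the filter, 1375 genes had an unadjusted edgeR p below 0.05 and 1648 did for the difference between housings. Leaving out each mouse in turn gave 162 to 281, 530 to 1052 and 791 to 1178 genes by these measures, and 0 at an adjusted p below 0.05; the highest of the first pair, 281 and 1052, came without EE RES mouse 6. Without the 2 choroid-rich mice, a choice made after seeing the data, 209 genes passed the criterion of the study, 122 higher and 87 lower.

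The mice were taken as unpaired, and whether same-numbered mice are more alike was not tested. Same-numbered SUS and RES mice had correlations from -0.073 to 0.294, over 0.1 in 4 of 9 pairs, and 3 correlated best with their own number. With the replicate block the counts were 185, 666 and 1180.

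Over 44 genes and 1358 combinations of gene and setting, 1200 kept the direction and the side of an unadjusted p of 0.05, 157 kept the direction alone, and 1 was reversed: S100a9, at -0.85 without EE SUS mouse 7 and at up to 2.17 with another mouse left out. Median log2 fold changes of 43 lists changed sign in 137 of 1245 combinations. CA1 was among them, at 0.020 with CA1 and thalamic scores as covariates. That score is the mean z-score of the same CA1 genes, so the model itself removes their difference. This value therefore does not test the CA1 difference. The same holds for the thalamic and choroid plexus lists with their own scores as covariates. The cause of the other changes was not tested. Levels near 1 CPM, as for Eomes, Sfrp5 and Csf2rb, limit the precision of their differences, and p-values measure the spread between these mice.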
